A study of Mus musculus with 15 samples.

Results

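The BCL2 family holds the genes that set the threshold for mitochondrial cell death, and 10 of them were followed here through leukemia stem cells (LSC) of 4 mouse tissues and their normal marrow counterparts. They were picked by gene symbol from 23359 gene entries, with earlier results of these data known. The pro-survival members were Bcl2, Bcl2l1 (which encodes BCL-XL), Mcl1 and the A1 genes Bcl2a1a, Bcl2a1b and Bcl2a1d. The effectors were Bax and Bak1, and the BH3-only members were Bcl2l11 (BIM) and Bbc3 (PUMA). All 10 had an entry of their own that was not merged with another gene.

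RNA-seq was made from LSC of a mouse blast-crisis chronic myeloid leukemia (bcCML), driven by the human oncogenes BCR-ABL and NUP98-HOXA9 expressed together. The LSC came from gonadal adipose tissue (AT), peripheral blood (BL), spleen (SPL) and bone marrow (BM), 12 days after leukemia cells were transplanted, and the normal counterparts came from normal bone marrow (NBM). Each of the 5 groups had 3 libraries, 15 in all, from female mice of 3 months. The comparisons address how LSC differ between tissues and from normal cells. The labels enter the leukemia model as the strain of the NBM samples too, name no sort gate, and say nothing of the strain of the recipients or of how many of their own cells remained. Whether a group's 3 libraries are 3 mice is not stated in them either, and p-values may then measure technical spread. In these bulk libraries, fewer cells that express a gene and less RNA per cell cannot be told apart.

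BAX and BAK open pores in the outer mitochondrial membrane, and the release of cytochrome c through them starts the caspase cascade. BCL2, BCL-XL, MCL1 and A1 hold BAX and BAK in check, and BH3-only proteins such as BIM and PUMA bind the pro-survival proteins and free the effectors. In blood cells MCL1 and A1 are short-lived proteins, BCL-XL is known as a survival protein of erythroid cells and platelets and as a target of STAT5 downstream of BCR-ABL, and BIM limits the lifespan of myeloid and lymphoid cells.

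Levels are the authors' pooled FPKM, fragments scaled to transcript length and sequencing depth, with 1 value per gene and group, and the bounds given with them are the authors', 2 standard deviations to either side. Because FPKM is per length, levels of different genes can be set side by side. Each fold is on the log2 scale, with the group named first on top, as the authors' deposited table of that pair gives it, and ± is the standard error that the table's test statistic implies. The q value is the p-value adjusted over the tests of all 10 pairs of groups, and "called" means tested with a q below 0.05. The pooled columns held 1.96e+07 estimated counts in AT, 1.95e+07 in BL, 8.96e+06 in SPL, 1.65e+07 in BM and 1.95e+07 in NBM, and 7540 to 8233 genes reached an FPKM of 1. The median fold of all tested genes was not at 0 in every pair. It was -0.48 in AT over BM, -0.37 in BL over BM and -0.46 in AT over NBM, against 0.12 in SPL over BM and -0.03 in BM over NBM, and members near those values had the fold of a typical gene. The list of stem and progenitor markers summed to 125 FPKM in AT, 249 in BL, 128 in SPL, 149 in BM and 261 in NBM, with 0 of 6 genes at 0. Most of each sum was Ly6a, at 109 FPKM in AT, 231 in BL, 97.9 in SPL, 105 in BM and 199 in NBM. Cd34 was at 7.92 to 24.3 FPKM in the LSC and 39.97 in NBM, and Flt3 at 0.487 to 1.29 and 4.64. Meis1 was at 3.20 FPKM in AT, 5.01 in BL, 14.2 in SPL and 12.1 in BM, against 6.65 in NBM. Kit, the stem cell factor receptor, was at 1.64 FPKM in AT, 2.26 in BL, 4.10 in SPL and 2.93 in BM, against 10.4 in NBM. Hoxa9, whose human counterpart forms part of the fusion oncogene, was at 2.03 to 3.65 FPKM in the 4 LSC groups and 0.771 in NBM.

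AT and BL LSC carried more Mcl1, Bcl2a1 and Bcl2l11 RNA than BM LSC, and AT LSC carried less Bcl2. All 4 LSC groups carried more Bcl2l1 than NBM. Bcl2l11 and the Bcl2a1 genes were lower in BM and SPL LSC than in NBM, and Bax and Bak1 were called in 0 of the 10 pairs. In AT over BM, 6 members rose and 1 fell of 10 tested in the authors' deposited table, where 7.24% of all tested genes rose and 15.5% fell. The median fold of the members was 1.68 there, beside the -0.48 of all tested genes. In BL over BM, 6 of 10 rose and 0 fell in the authors' deposited table, against 10.5% and 22.8% of all tested genes.

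These shares of all genes depend on the scaling, and in several pairs their balance turned round. In AT over BM, among tested genes with a finite fold, 945 were higher and 2039 lower in the authors' deposited table. The numbers became 1550 and 666 when the folds were centred on the median of all tested genes, 1311 and 1007 on total estimated counts, and 1539 and 694 on their upper quartile. Centring likewise gave 1634 higher and 867 lower in AT over NBM, where 1044 and 2058 stood in the authors' deposited table, and 1428 and 888 in AT over SPL, in place of 878 and 2291. For BL, centring gave 1990 higher and 1720 lower over BM, in place of 1339 and 2905 in the authors' deposited table. It gave 2137 and 1805 over NBM, in place of 1469 and 2964, and 1822 and 1792 over SPL, in place of 1240 and 2856. In AT over BL it gave 567 higher and 215 lower, in place of 517 and 327, and in SPL over BM 109 and 223, in place of 143 and 176. SPL over NBM had 794 higher and 743 lower in the authors' deposited table, and 579 and 993 on total counts. The number of members called in AT over BM was 7 as deposited and 6 to 7 under these scalings.

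In AT over BL, 1 member of 10, Bcl2l11, was called higher in the authors' deposited table and 0 lower, against 4.01% and 2.51% of all tested genes. In AT over SPL 5 of 10 rose and 0 fell by the authors' deposited table, against 7.2% and 17.9% of all tested genes, and in BL over SPL 4 of 10 rose and 0 fell, against 10.2% and 23.1%. For SPL over BM the authors' deposited table, made with Cuffdiff, called 0 of 9 tested members, against 1.19% of all tested genes higher and 1.5% lower, and 0 of the 9 had an unadjusted p below 0.05. Against NBM, the authors' deposited table called 2 members higher and 0 lower of 10 in AT, where 7.94% of all tested genes were higher and 15.5% lower. For BL over NBM the authors' deposited table called 3 of 10 higher and 1 lower, against 11.5% and 22.9% of all tested genes. SPL over NBM had 1 higher and 4 lower of 9, against 6.37% and 6.19%, and BM over NBM had 2 higher and 4 lower of 9, against 8.17% and 7.85%, by the authors' deposited tables. The Bcl2a1 genes share reads, as described further on, and count as 3 of the members in each of these numbers. The pairs share groups, so their folds are not independent of each other.

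**Figure D1:**
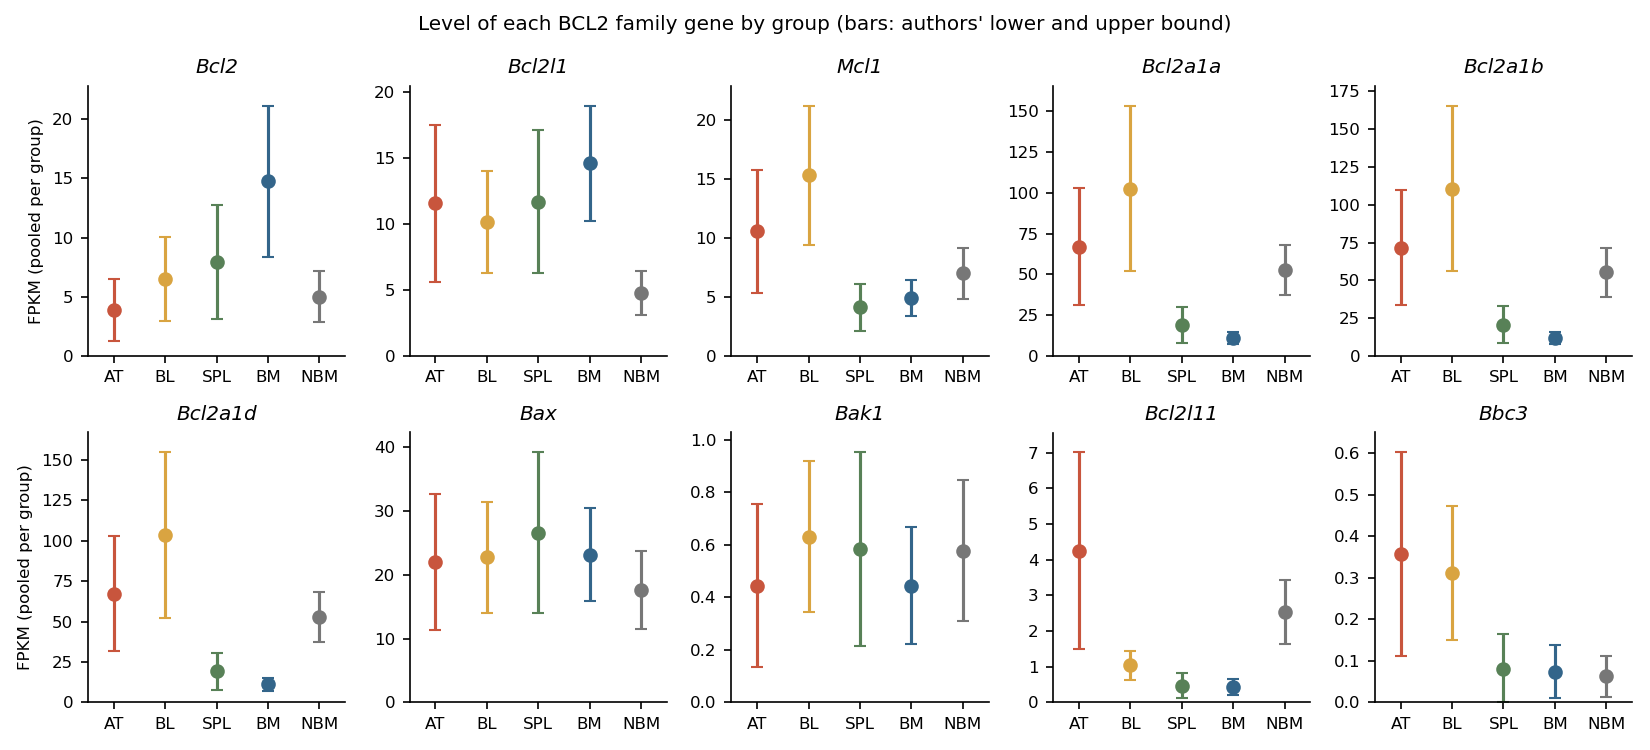
Pooled FPKM of the 10 BCL2 family genes in AT, BL, SPL and BM LSC and in NBM, with a separate linear axis from 0 for each gene. Points are the authors' values and bars their lower and upper bounds; the Bcl2a1 genes peak at 103 to 111 FPKM in BL, Bcl2 at 14.8 in BM and Bcl2l11 at 4.25 in AT, while the bars of Bax and of Bak1 overlap in all 5 groups.

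Bcl2, the founding pro-survival gene and the target of venetoclax, was at 3.86 FPKM in AT (bounds 1.24 and 6.49), 6.48 in BL (2.93 and 10.03), 7.91 in SPL (3.09 and 12.7), 14.8 in BM (8.40 and 21.1) and 5.01 in NBM (2.85 and 7.18). BM LSC stood highest, and their bounds did not overlap those of AT LSC or of NBM. Bcl2 rose in BM over NBM, with a fold of 1.56 ± 0.44 (q = 0.00376) in the authors' deposited table. It fell in AT over BM, at -1.93 ± 0.58 (q = 0.00699) in the authors' deposited table. That call depends on the scaling, since centring the folds of the authors' deposited table on the median of all tested genes gave -1.46 (q = 0.0624). The folds were -1.19 (q = 0.0759) for BL over BM and -0.90 (q = 0.253) for SPL over BM in the authors' deposited tables, and neither was called. AT over NBM missed the threshold, at -0.38 by the authors' deposited table, with a 95% interval of -1.51 to 0.76, a range that holds changes of either sign. In the order BM, SPL, BL, NBM, AT, no pair of neighbours was called.

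Bcl2l1 was at 11.5 FPKM in AT (5.58 and 17.5), 10.1 in BL (6.28 and 14.0), 11.7 in SPL (6.27 and 17.1), 14.6 in BM (10.3 and 18.9) and 4.75 in NBM (3.09 and 6.42). NBM was the low group, and the bounds of the 4 LSC groups overlapped. By the authors' deposited tables it rose over NBM at all 4 sites, with folds of 1.28 ± 0.45 in AT (q = 0.0258), 1.09 ± 0.37 in BL (q = 0.0209), 1.30 ± 0.42 in SPL (q = 0.0134) and 1.62 ± 0.33 in BM (q = 2.57e-05). Scaled to total estimated counts, the SPL value was 1.04 (q = 0.0621), and the other 3 were called under each scaling tried. Between LSC sites no pair was called. The authors' deposited table gave -0.34 for AT over BM, with an interval of -1.18 to 0.51. The gene makes a long and a short splice form with opposite roles, which a value per gene does not separate.

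Mcl1, whose protein is essential for hematopoietic stem cells and many leukemias, ran in another order. It was at 10.5 FPKM in AT (5.32 and 15.8), 15.3 in BL (9.42 and 21.2), 4.11 in SPL (2.09 and 6.12), 4.92 in BM (3.40 and 6.45) and 6.997 in NBM (4.85 and 9.15). BL was high and SPL and BM low, with NBM between. The authors' deposited tables gave folds of 1.63 ± 0.36 for BL over BM (q = 8.69e-05) and 1.90 ± 0.45 for BL over SPL (q = 0.000372). In AT the folds were 1.10 ± 0.42 over BM (q = 0.0449) and 1.36 ± 0.50 over SPL (q = 0.0359) in the authors' deposited tables. Mcl1 rose in BL over NBM as well (1.13 ± 0.35, q = 0.0108, authors' deposited table), whereas BM over NBM, at -0.51 (q = 0.277), was not called. No pair of neighbours in the order BL, AT, NBM, BM, SPL was called.

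The A1 genes are recent mouse duplicates on chromosome 9, and their RNAs are hard to tell apart. Bcl2a1a lies at chr9:88956920-88962416, Bcl2a1b at chr9:89199273-89207838 and Bcl2a1d at chr9:88723288-88731850 (mm10, as in the files). In the GENCODE M21 annotation their coding sequences of 516 bases differ from each other at 6 to 11 positions. The share of 50-base windows of the transcript that also occur in another A1 transcript is 69.0% for Bcl2a1a, 57.6% for Bcl2a1b and 79.5% for Bcl2a1d. Another copy, Bcl2a1c, was added after its values were seen, and it shares 10.4% of its windows. The first 60 coding bases are shown because they hold positions that tell the copies apart. Capitals mark the 6 positions at which the 4 copies are not all alike.
Bcl2a1a: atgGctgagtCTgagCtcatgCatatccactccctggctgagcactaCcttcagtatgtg
Bcl2a1b: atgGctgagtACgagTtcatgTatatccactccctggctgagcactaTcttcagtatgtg
Bcl2a1d: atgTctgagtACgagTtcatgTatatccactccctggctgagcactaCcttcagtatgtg
Bcl2a1c: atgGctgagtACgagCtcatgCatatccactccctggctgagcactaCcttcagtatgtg

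Estimated counts of the A1 genes were close to equal in each group, as 3720, 3644 and 3718 for Bcl2a1a, Bcl2a1b and Bcl2a1d in AT, and 422, 412 and 422 in BM. How shared reads were divided among the copies is not given in the sources used here. Their values are therefore best read as 1 signal of the A1 genes, and differences between the copies as uncertain. Bcl2a1b was at 71.5 FPKM in AT (33.5 and 109.6), 111 in BL (56.2 and 165), 20.8 in SPL (8.64 and 32.9), 11.7 in BM (7.62 and 15.8) and 55.2 in NBM (39.0 and 71.5). AT, BL and NBM were high and SPL and BM low, and the bounds of the high groups did not overlap those of the low groups. Bcl2a1a and Bcl2a1d ran from 11.03 and 11.11 FPKM in BM to 103 FPKM each in BL.

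Bcl2a1b rose in BL over BM with a fold of 3.24 ± 0.44 (q = 1.36e-11) in the authors' deposited table, rank 168 from the top of 12675 tested genes. For AT over BM the authors' deposited table gave 2.61 ± 0.46 (q = 5.09e-07). Over SPL, the folds in the authors' deposited tables were 2.41 ± 0.55 in BL (q = 0.000205) and 1.78 ± 0.57 in AT (q = 0.0124). Relative to NBM the gene fell, at -2.24 ± 0.33 in BM (q = 8.69e-10) and -1.41 ± 0.47 in SPL (q = 0.0179), by the authors' deposited tables. Bcl2a1a and Bcl2a1d had folds of 2.60 each in AT over BM and -2.25 each in BM over NBM in the authors' deposited tables. AT over NBM was 0.37 (q = 0.639) and AT over BL was -0.63 (q = 0.459) in the authors' deposited tables, and neither was called. BL over NBM missed the threshold as deposited, at 1.00 (q = 0.0663, authors' deposited table), and passed it once the fold was centred on the median of all genes (1.37, q = 0.00834). In the order BL, AT, NBM, SPL, BM, NBM and SPL were the only neighbours called by the authors' deposited table.

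Motifs were searched on either strand over the 250 bases before a gene's start, in 32851 RefSeq promoters on GRCm38.p6. GAGGAAGT, a purine-rich sequence of the kind bound by the myeloid factor PU.1, is in 2.44% of them. Among members these are the promoters of Bcl2a1a, Bcl2a1b, Bcl2a1d and Bak1. TGANTCA, which leaves the centre of the AP-1 sequence TGA(C/G)TCA open to any base, is in 6.75% of promoters. It is in those of the same A1 genes, where the match in the printed windows reads TGAATCA and so is not the AP-1 consensus. An 80-base window before the start of transcription is printed for Bcl2a1a and Bcl2a1d, with GAGGAAGT in capitals, since the A1 values moved together across the groups, though on shared reads. The window of Bcl2a1b at chr9:89199085-89199164 (plus strand) has the same 80 bases as that of Bcl2a1a, at chr9:88956776-88956855 (plus strand). The Bcl2a1d window is at chr9:88731915-88731994 (minus strand). Bak1, which also holds the sequence, was below 1 FPKM in all 5 groups.
Bcl2a1a: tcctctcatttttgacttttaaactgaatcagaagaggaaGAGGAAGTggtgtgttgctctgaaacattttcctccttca
Bcl2a1d: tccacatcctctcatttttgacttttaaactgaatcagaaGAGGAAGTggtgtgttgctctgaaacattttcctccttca
The NF-kB consensus, in 7.25% of promoters, was in those of Bbc3 and Bcl2l1. TTCNNNGAA, the STAT type, in 7.02% of promoters, was in none of the members' promoters over the same 250 bases. A match is a description of letters, not of binding.

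The make-up of pro-survival RNA differed by group. The A1 genes made up 88.8% of the summed FPKM of the 6 pro-survival members in AT, 90.9% in BL, 71.4% in SPL, 49.7% in BM and 90.5% in NBM. With Bcl2a1b as the only copy, a choice made after seeing the data, the A1 share was 73.4% in AT, 77.6% in BL, 46.7% in SPL, 25.4% in BM and 76.7% in NBM. Because the A1 copies share reads, the share of the other 3 genes was also taken without them. Bcl2 was then 14.9% of the sum in AT, 20.3% in BL, 33.4% in SPL, 43.1% in BM and 29.9% in NBM. Mcl1 took 40.6% in AT, 47.9% in BL, 17.3% in SPL, 14.4% in BM and 41.7% in NBM. Bcl2l1 had the narrower range among LSC, 31.7% to 49.3%, and 28.3% in NBM. So Mcl1 RNA was 2.73 and 2.36 times that of Bcl2 in AT and BL, 0.519 and 0.334 times in SPL and BM, and 1.40 times in NBM. With 1 pooled value per group, these shares and ratios have no test.

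**Figure D2:**
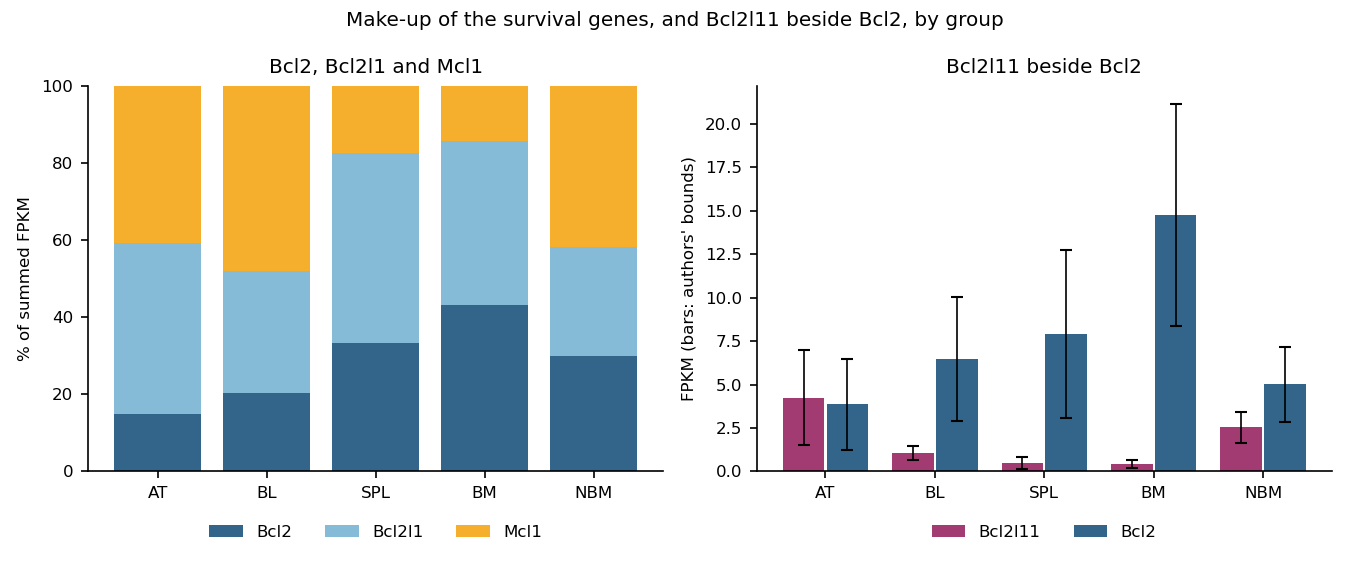
Left, share of Bcl2, Bcl2l1 and Mcl1 in the summed FPKM of the 3 genes (percent, stacked bars from 0 to 100) in AT, BL, SPL, BM and NBM; the Mcl1 part is 40.6% to 47.9% in AT, BL and NBM and 14.4% to 17.3% in SPL and BM. Right, pooled FPKM of Bcl2l11 beside Bcl2 in each group with the authors' bounds as bars; the genes are near each other in AT (4.25 and 3.86) and farthest apart in BM (0.436 and 14.8).

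Neither effector was called in any of the 10 pairs. Bax was at 22.0 FPKM in AT (11.3 and 32.7), 22.8 in BL (14.1 and 31.5), 26.6 in SPL (14.0 and 39.2), 23.2 in BM (15.9 and 30.4) and 17.7 in NBM (11.6 and 23.8). All bounds overlapped, and the highest group was 1.51 times the lowest. Bax was tested in 10 pairs and called in 0 in the authors' deposited tables, with its largest fold 0.59 (q = 0.368) in SPL over NBM and its lowest -0.27 in AT over SPL. Its AT over BM fold was -0.07 in the authors' deposited table, with an interval of -0.89 to 0.74. Bak1, the other effector, was at 0.444 FPKM in AT, 0.631 in BL, 0.583 in SPL, 0.444 in BM and 0.577 in NBM, so that Bax stood 30.6 to 52.2 times above it. Its folds in the authors' deposited tables ran from -0.51 in AT over BL to 0.51 in BL over BM, with 0 of 10 called. The interval for Bak1 in AT over BM, -1.22 to 1.22 by the authors' deposited table, leaves room for more than a 2-fold change in either direction. At 33.2 to 94.5 estimated counts per group, it was the second least covered member.

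Bcl2l11, the gene of BIM, had the widest range of all 10 members, 9.76 times from the lowest to the highest group. It was at 4.25 FPKM in AT (1.501 and 7.01), 1.04 in BL (0.639 and 1.44), 0.471 in SPL (0.122 and 0.819), 0.436 in BM (0.206 and 0.665) and 2.54 in NBM (1.63 and 3.44). AT and NBM were the high groups, and their bounds did not overlap those of the other 3. In the order AT, NBM, BL, SPL, BM, NBM and BL were the only neighbours called. Bcl2l11 rose in AT over BM by 3.29 ± 0.60 (q = 1.72e-06, authors' deposited table), rank 262 from the top of 13035 tested genes. On log2(FPKM + 1) that fold was 1.87, below the 2.51 of Bcl2a1b on the same scale. It rose in AT over SPL by 3.18 ± 0.71 (q = 0.000137) and in AT over BL by 2.03 ± 0.54 (q = 0.00198), by the authors' deposited tables. In AT over BL, Mcl1 was at -0.54 (q = 0.468) in the authors' deposited table and, like Bcl2a1b, was not called, and differences between the folds of different genes were not tested.

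The gene fell relative to NBM in the LSC of 3 sites. The folds were -1.29 ± 0.38 in BL (q = 0.00578), -2.43 ± 0.59 in SPL (q = 0.000576) and -2.54 ± 0.46 in BM (q = 1.17e-06) in the authors' deposited tables. The BL call was lost under centring on the median of all genes (-0.92, q = 0.0732) and under upper-quartile scaling (-0.85, q = 0.105), both computed from the authors' deposited table. AT over NBM, at 0.75 with an interval of -0.30 to 1.79 in the authors' deposited table, was not called. BL over BM was called at 1.25 ± 0.47 (q = 0.0393, authors' deposited table). Set against Bcl2, its binding partner, Bcl2l11 RNA was nearly level in AT, where Bcl2 was 0.908 times Bcl2l11. Bcl2 was 6.23 times Bcl2l11 in BL, 16.8 times in SPL, 33.9 times in BM and 1.98 times in NBM. The gene makes several isoforms of different potency, which FPKM per gene does not separate.

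The promoter of Bcl2l11 was 1 of the 3.17% of RefSeq promoters with TGTTTAC, and the promoter of Bbc3 was another. TGTTTAC is the sequence of forkhead factors such as FOXO3, a regulator of Bcl2l11. Foxo3 RNA was at 0.0205 FPKM in AT, 0.0415 in BL, 0.0208 in SPL, 0.0597 in BM and 0.0333 in NBM. The authors did not test Foxo3 in AT over BM or in BM over NBM, and its part in the Bcl2l11 levels was not tested. The window at chr2:128125788-128125867 (plus strand, GRCm38.p6) is shown because Bcl2l11 had the widest range of FPKM among the members. Capitals mark the match, which reads on the opposite strand.
Bcl2l11: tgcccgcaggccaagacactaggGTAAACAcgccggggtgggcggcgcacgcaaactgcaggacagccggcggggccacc

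Bbc3, the gene of PUMA and a p53 target, was the least abundant member. It was at 0.357 FPKM in AT (0.112 and 0.602), 0.311 in BL (0.149 and 0.472), 0.0817 in SPL (0 and 0.165), 0.0744 in BM (0.0114 and 0.137) and 0.0629 in NBM (0.0130 and 0.113). AT and BL were high, but the values rest on 58.7 estimated counts in AT, 43.3 in BL, 4.26 in SPL, 8.32 in BM and 8.45 in NBM. By the authors' deposited tables Bbc3 rose over BM at 2.26 ± 0.79 in AT (q = 0.0239) and 2.06 ± 0.72 in BL (q = 0.0236). It rose over NBM at 2.50 ± 0.76 in AT (q = 0.00756) and 2.30 ± 0.68 in BL (q = 0.00629), again by the authors' deposited tables. Over SPL the authors' deposited tables gave 2.13 (q = 0.0691) in AT and 1.93 (q = 0.0782) in BL. Those values passed the threshold under each of the 3 other scalings, with q from 0.0169 to 0.0391. The pairs among SPL, BM and NBM were not tested by the authors for this gene. On log2(FPKM + 1), which damps genes this low, the AT over BM fold was 0.34.

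**Figure D3:**
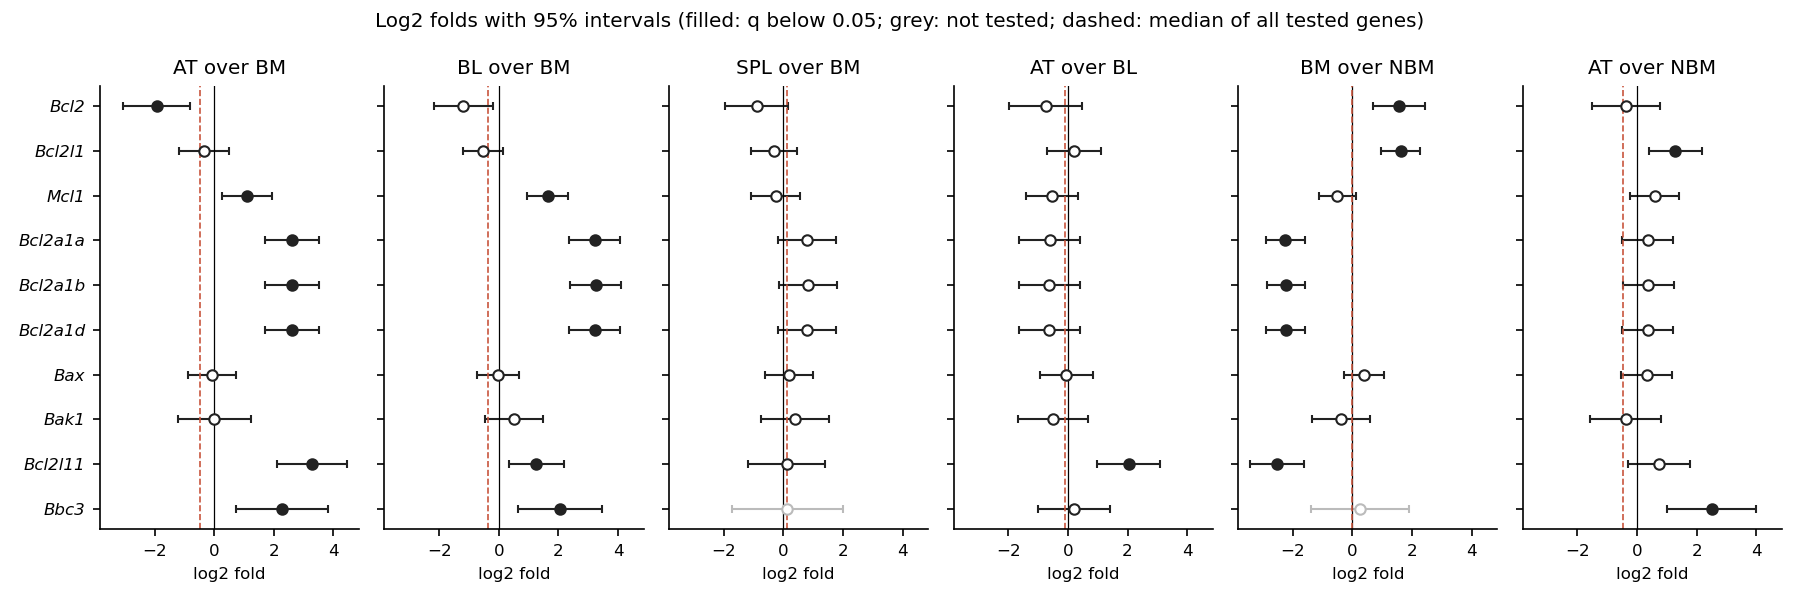
Log2 folds of the 10 members in 6 of the pairs of groups, as the authors' deposited tables give them, with 95% intervals. Filled points have q below 0.05, grey points were not tested and the dashed red line is the median fold of all tested genes; Bcl2l11 and the A1 genes lie to the right in AT over BM (2.60 to 3.29) and to the left in BM over NBM (-2.24 to -2.54).

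Beyond the members, 7 lists of 65 genes of the same pathway were read, of which 60 were tested in AT over BM. Of these, 8 rose and 10 fell in the authors' deposited table, against 7.24% and 15.5% of all tested genes. The median fold was -0.31, beside -0.48 for all tested genes. The split depends on scaling, since centring on the median of all genes gave 12 higher and 5 lower. In BM over NBM, 7 rose and 4 fell of 61 tested in the authors' deposited table, against 8.17% and 7.85% of all tested genes.

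Counts of each list in AT over BM stand beside the same 7.24% of all tested genes higher and 15.5% lower, and a count near those shares says nothing about a list. Of 5 other pro-survival and multidomain genes tested in AT over BM, 0 rose and 1 fell, Bcl2l14, at -3.22 (q = 4.29e-05) in the authors' deposited table. Of 6 other BH3-only genes, 0 rose and 2 fell in the authors' deposited table: Bid, which links death receptors to mitochondria, at -1.76 (q = 0.000365), and Bnip3, a hypoxia-induced mitophagy gene, at -1.64. Pmaip1, the gene of the MCL1 antagonist NOXA, was at 0.99 (q = 0.106) in AT over BM in the authors' deposited table, and passed the threshold under all 3 other scalings. In BL over BM it rose by 1.59 (q = 0.000157), and Bmf by 1.69 (q = 0.0201), in the authors' deposited table. Bmf was low in both groups, at 0.253 FPKM in BL and 0.0787 in BM. Bnip3 rose in BM over NBM, at 1.39 in the authors' deposited table, where 1 of 6 genes of its list was called.

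Downstream of the mitochondria, 0 rose and 2 fell of 17 apoptosome, caspase and inhibitor genes in AT over BM, near the 7.24% and 15.5% of all tested genes. The list median was -0.51, beside -0.48 for all tested genes. The called genes were Casp2 at -1.82 and Diablo, which relieves caspase inhibition, at -1.45 in the authors' deposited table, and the Diablo call was lost under all 3 other scalings. In BM over NBM, Diablo rose by 1.34 and Casp6, an executioner caspase, fell by 0.96 in the authors' deposited table. Birc5, a mitotic inhibitor of apoptosis, was not called in either pair but fell by 2.67 in BL over BM (authors' deposited table). Of 6 genes listed under MCL1 protein stability, not all of them established regulators of it, Btrc, a ubiquitin ligase subunit, fell in AT over BM (-2.08). In BM over NBM 0 were called, in the authors' deposited tables.

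Of 12 genes of p53 and its targets, 4 rose and 2 fell in AT over BM, against 7.24% and 15.5% of all tested genes. The list median was -0.59, beside -0.48 for all tested genes. The p53 antagonist Mdm2 (1.83, q = 0.00111), the cell-cycle inhibitor Cdkn1a (1.37), Fas (1.83) and Sesn2 (1.22) were higher, and Zmat3 (-1.56) and Aen (-1.42) lower, in the authors' deposited table. Both lower calls were lost under all 3 other scalings. Trp53, the gene of p53, was at 28.8 FPKM in AT, 18.9 in BL, 102 in SPL, 70.3 in BM and 66.9 in NBM. Its folds in the authors' deposited tables were -1.29 (q = 0.0841) in AT over BM and -1.89 (q = 0.00018) in BL over BM. In AT over SPL, 3 of the 12 genes rose and 6 fell, against 7.2% and 17.9% of all tested genes. In BM over NBM, Zmat3 (1.85) and Eda2r (2.95 ± 1.09) rose and Trp53inp1 (-1.23) fell by the authors' deposited table. Eda2r was at only 0.180 FPKM in BM and 0.0233 in NBM, and Zmat3 at 0.501 and 0.139. Of the 8 NF-kB genes, which include known activators of the A1 genes, 4 rose and 0 fell in AT over BM, against the same shares of all genes. They were Rel at 2.62 (q = 1.68e-06), Relb at 2.55, Nfkb2 at 2.01 and the feedback inhibitor Nfkbia at 1.75 in the authors' deposited table. The list median was 1.34, beside -0.48 for all genes. Relb was low in both groups, at 0.645 FPKM in AT and 0.110 in BM. In AT over BL, where no A1 gene was called, Rel rose by 1.46 (q = 0.0117, authors' deposited table). Of the 8 NF-kB genes, 4 rose in AT over SPL, 2 in BL over BM and 1 in BL over SPL, and 0 fell. The shares of all tested genes that rose were 7.2%, 10.5% and 10.2%, in the authors' deposited tables. The part of these genes in the A1 results was not tested. In BM over NBM, Relb (-2.32) and Rel (-1.26) fell and Nfkb1 (0.81) rose by the authors' deposited table, the last under 2 of the 4 scalings.

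In the STAT5 and FOXO list, 2 of 6 tested genes rose in BM over NBM and both were STAT5 targets. Cish was at 53.9 FPKM in AT, 57.3 in BM and 9.25 in NBM, and Socs2 at 7.50 in AT, 17.6 in BM and 1.27 in NBM. Their folds in BM over NBM were 2.63 and 3.79 in the authors' deposited table, which lists q as 0 for each. In the other 3 sites Cish rose over NBM by 2.54 in AT, 2.90 in BL and 1.90 in SPL, in the authors' deposited tables. Socs2 (-1.23) and Stat5a (-1.25) fell in AT over BM by the authors' deposited table, and both calls were lost under all 3 other scalings. Foxo1 and Pim1 were not called in either pair as deposited, and Pim1 was called higher in AT over BM under the 3 other scalings.

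**Figure D4:**
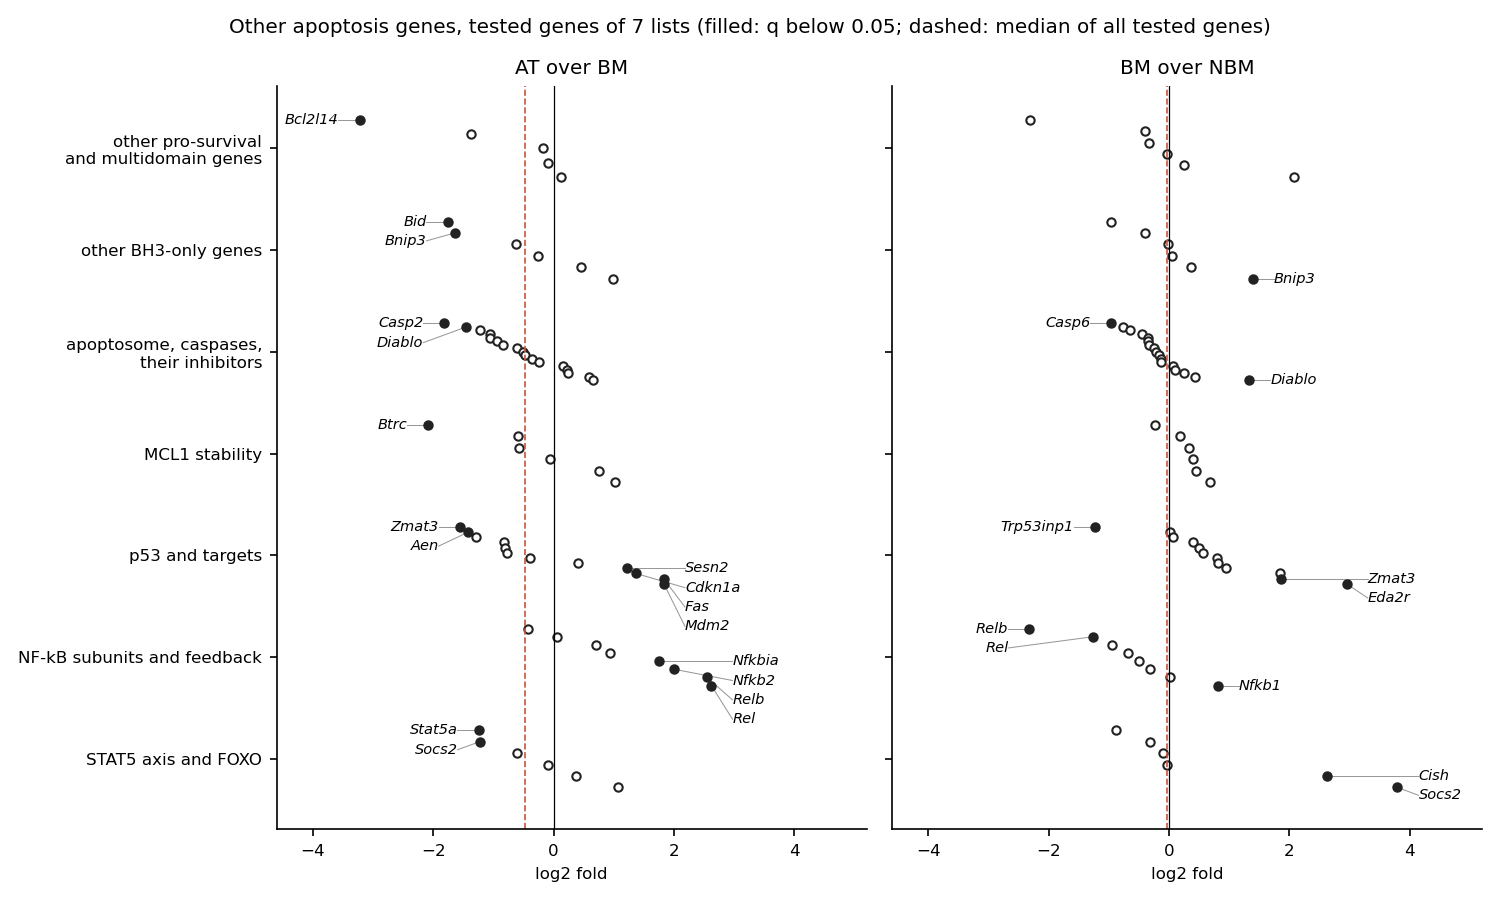
Log2 folds of the tested genes of 7 apoptosis lists in AT over BM (left) and BM over NBM (right), from the authors' deposited tables; each point is a gene, filled and named where q was below 0.05, and the dashed red line is the median of all tested genes. The 4 named NF-kB genes lie between 1.75 and 2.62 in AT over BM, and Cish and Socs2 at 2.63 and 3.79 in BM over NBM.

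Genes whose 5 group values ran most like a member's were found by the Euclidean distance between mean-centred log2(FPKM + 0.1), over 4792 genes with an FPKM of 5 or more in some group. Predicted genes and all members were left out of the search, so Bcl2a1a and Bcl2a1d could not appear beside Bcl2a1b. With 5 pooled values, a near match is a description of these groups. The 5 nearest to Bcl2 were Diablo, Iqgap2, Kcne3, Dnajc10 and Bnip3, at distances of 0.512 to 0.569. Nearest to Mcl1 were Pitpna, Fbxl5, Ptk2b, Ncf4 and Clip1, at 0.176 to 0.254. Outside the members, Bcl2a1b was nearest to the copy Bcl2a1c (0.212), followed by Fam49a, Ctss, Siglece and Aldh3b1. The aligned coding bases of Bcl2a1b and Bcl2a1c are 95.8% identical, and the part of shared reads in their nearness was not tested. Bcl2a1c was at 94.7 FPKM in AT, 138 in BL, 24.1 in SPL, 15.2 in BM and 78.1 in NBM. Nearest to Bcl2l11 were Icam1, S100a9, S100a8, Id3 and BC049730, at larger distances of 0.773 to 1.17.

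Markers of other cell types moved with some of these results. The macrophage list summed to 153 FPKM in AT, 296 in BL, 56.2 in SPL, 80.05 in BM and 101 in NBM, with 0 of 8 genes at 0. Of its 8 genes, 4 were called higher in AT over BM, against 7.24% of all tested genes, and 5 in BL over BM, against 10.5%, by the authors' deposited tables. In BM over NBM 5 of 8 were called lower and 1 higher in the authors' deposited table, against 7.85% and 8.17% of all tested genes. The genes of the list did not share 1 pattern. Csf1r, the receptor of a macrophage growth factor, was at 22.9 FPKM in AT, 54.2 in BL, 5.02 in SPL, 3.38 in BM and 22.4 in NBM. Emr1, the gene of the F4/80 antigen, was at 46.0 FPKM in AT, 122 in BL, 16.9 in SPL, 40.2 in BM and 4.84 in NBM. Cd68 was at 72.3 FPKM in AT, 101 in BL, 21.2 in SPL, 30.1 in BM and 40.5 in NBM. C1qb, of the complement C1q complex, was at 9.78 FPKM in AT, 16.1 in BL, 10.3 in SPL, 4.34 in BM and 25.5 in NBM. The other 4 genes, C1qa, C1qc, Mrc1 and Mertk, lay between 0.300 and 1.26 FPKM in the LSC and between 0.506 and 2.84 in NBM.

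The neutrophil list (8 of 9 genes found) summed to 2175 FPKM in AT, 822 in BL, 425 in SPL, 541 in BM and 1044 in NBM, and its 3 highest groups came in the same order as those of Bcl2l11. Most of that was S100a8, at 1331 FPKM in AT and 645 in NBM. S100a8, S100a9 and Ltf followed the order of the sum, and the other genes did not. Cxcr2, Mmp8, Mmp9 and Retnlg were highest in BL, as Mmp8 at 36.5 FPKM there and 9.91 in AT. Csf3r was highest in NBM, at 8.76 FPKM, with 3.24 in AT. Of the 8 genes of the list, 3 rose and 0 fell in AT over BM, against 7.24% and 15.5% of all tested genes. In AT over BL 2 rose and 2 fell, against 4.01% and 2.51%, in the authors' deposited tables. The stromal list was at 25.0 FPKM in AT and 1.05 to 2.75 in the other 4 groups, while the fat cell list was at 0.651 FPKM in AT, with Adipoq, Plin1 and Lep each below 0.1. The erythroid list was at 9.64 FPKM in AT, 12.7 in BL, 244 in SPL, 74.2 in BM and 13.7 in NBM. The mast cell and basophil list was at 240 to 393 FPKM in the LSC and 103 in NBM. Most of that was Mcpt8, while Cpa3 was at 113 FPKM in BM and 17.5 to 36.9 in the other LSC. In each of AT, BL and SPL over BM, 2 of its 4 genes were called lower and 0 higher. The shares of all tested genes called lower there were 15.5%, 22.8% and 1.5%, in the authors' deposited tables. The B cell list was at 1.46 to 14.0 FPKM in the LSC and 21.1 in NBM, and the T and NK cell list at 1.40 to 5.96 and 35.2. The endothelial list was at 8.05 to 24.2 FPKM in the LSC and 13.5 in NBM. Pecam1, which leukocytes also express, made up 7.94 to 24.0 FPKM of that in the LSC and 12.8 in NBM, and the other 3 genes were below 1 FPKM in all 5 groups. The part of these cell types in the results on Bcl2, Bcl2l1, Mcl1, the A1 genes and Bcl2l11 was not tested.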

How the data were processed

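RNA-seq libraries of 15 samples in 5 groups were used as deposited. Per the labels, RNA was extracted with RNeasy Plus, and libraries were made with SMARTer low-input and Nextera XT kits. Per the submitters' processing notes, the authors used Trimmomatic 0.32, Cufflinks 2.0.2 and Cuffdiff, with mm10 as the genome. Aligner, annotation, strand setting and Cuffdiff version were not given in the sources used here. For each gene and group, 1 pooled FPKM with its bounds and 1 estimated count were deposited by the authors. For each pair of groups the authors deposited the log2 fold with its test statistic and its p-value and q-value. No column held a value per library, so a count test per library was not run. Standard errors were computed as fold over statistic, and intervals as 1.96 of them to either side. The q-values equalled a Benjamini-Hochberg adjustment over all 10 pairs to within 1.70e-06.

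The calculation was tested on simulated data, with Python 3.11.15, pandas 2.3.3, numpy 2.4.6 and scipy 1.17.1. The simulation took the deposited standard errors as given, so it could not check whether they hold the spread between libraries. Alternatives were 3 other scalings (folds centred on the median, total and upper quartile of estimated counts), adjustment within a pair, q below 0.01, an FPKM minimum of 1, merged entries (105) left out, another pseudocount and the FPKM of the tracking table. The members, gene lists and marker lists were chosen with earlier results of these data known. Genes named were the 10 members and up to 3 genes of each list with the smallest q in AT over BM and in BM over NBM. Also named were the 5 nearest to Bcl2, Mcl1, Bcl2a1b and Bcl2l11, leaving out predicted genes and members. Bcl2a1c, Fas, Sesn2, Aen, Nfkbia, Trp53, Foxo3, the motifs and the values of wider genes in further pairs were chosen after values were seen. Promoter sequences are RefSeq's on GRCm38.p6 and coding sequences GENCODE M21's.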

Additional observations from a re-analysis of the deposited data

How the results depend on the processing

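No paired analysis was possible because the deposited values are pooled over the libraries of a group, and for the same reason no library could be left out. Scaling changed the number of members called by no more than 1.5 times in any pair. It turned 3 higher and 1 lower in BL over NBM into 6 higher and 0 lower (median or upper quartile), and 1 higher and 4 lower in SPL over NBM into 0 higher and 5 lower (total counts). At q below 0.01, 1 member was called in AT over NBM, 2 in BL over NBM, 1 in SPL over NBM and 1 in AT over SPL. At this threshold 9 genes of the wider lists were called in AT over BM, in place of 18, and 1 neighbour pair in the order of levels, in place of 5. With an FPKM minimum of 1, Bbc3 and Bak1 left the tests of every pair and Bcl2l11 that of SPL over BM, so that 79 folds of members remained. At this minimum 1 member was called in AT over NBM. Without Bcl2a1a and Bcl2a1d, a choice made after seeing the data, 3 members were called in SPL over NBM, 3 in AT over SPL and 2 in BL over SPL. The share of Bcl2 in the pro-survival sum in BM was 21.7% with the A1 copies, 43.1% without them and, chosen after seeing the data, 32.1% with Bcl2a1b as the only copy. Uncalled folds near 0 changed sign and stayed uncalled: Bcl2 in AT over NBM (0.082, median), Bcl2l1 in AT over BM (0.14, median, and 0.15, upper quartile), and Bax in AT over BM (0.40, median, 0.23, total counts, and 0.38, upper quartile) and in AT over SPL (0.24, 0.23 and 0.27 in the same order). Over all 97 tested folds of members, the number of sign changes was 14, 11 and 12 in the same order, with deposited folds of 0.39 or less in size. Bcl2 in BL over BM passed the threshold with adjustment within the pair (q = 0.0494). On log2(FPKM + 1), 14 of the 97 folds moved by more than their standard error, those of Bcl2l11 and Bbc3 in pairs named above among them. The A1 genes summed gave folds within the standard error of that of Bcl2a1b. Depth limits Bbc3 and Bak1, and SPL had the fewest counts. The cause of these shifts was not tested.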
